A study of Mus musculus with 20 samples.

Results

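The 10 genes described here, *Mpp3*, *Marcksl1*, *St8sia2*, *Tfcp2l1*, *Kitl*, *Lpar1*, *Psat1*, *Necab1*, *Tmem176b* and *Rab37*, are listed in the study as higher in type I spiral ganglion neurons (SGNs) of adult *VGlut3* knockout mice. That list, which is longer than the 10 genes, came from single-cell data of another mouse line. The 10 genes used here are among the 24411 genes measured. It is asked here whether these genes fall as the cochlea matures, from postnatal day 7 (P7) to P22, with no wild-type mice in the data. It is also asked whether their levels differ at either age between mice that lack the long isoform of BAI1 and heterozygous controls.

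Bulk RNA-seq was made from the sensory epithelium and spiral ganglion of the cochlear apical coil, with 4 mice pooled per library (3 to 4 in another of the descriptions of the study). Control mice were heterozygous (Bai1tm2b/+, labelled Het) and knockout mice homozygous (Bai1tm2b/tm2b, labelled Homo), so the controls also carried a copy of the tm2b allele, in which exons 3 and 4 of *Adgrb1* are deleted in all cells and a lacZ reporter cassette is left. Mice of both sexes on a C57BL/6N background were used at P7, before the onset of hearing, and at P22, after it. There were 3 libraries per genotype at P22 and 7 per genotype at P7, of which replicates 5 to 7 were deposited as estimated counts and replicates 1 to 4 as whole numbers that behave as rounded TPM, values scaled for transcript length and library size. The study describes separate P7 batches of 4 and 3 libraries per genotype and a single P22 batch. The labels do not say which replicates form which P7 batch. Between the P7 sets, effects of batch and of unit cannot be told apart.

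VGLUT3, encoded by *Slc17a8*, loads glutamate into the synaptic vesicles of inner hair cells (IHCs), and SGNs receive no glutamate from IHCs without it. BAI1 is an adhesion G-protein-coupled receptor. Its gene is expressed in SGNs, the neurons on the other side of the same synapse. The study could not locate the protein in the cochlea with the antibodies available. In developing neurons, growth cone proteins and polysialylated adhesion molecules are abundant while axons extend and are usually reduced as connections mature. Of the 10 genes, *Marcksl1* and *St8sia2* relate to such roles, and the others have varied ones. *Mpp3* is a membrane scaffold, *Marcksl1* an actin regulator, *St8sia2* a polysialyltransferase, *Tfcp2l1* a transcription factor, *Kitl* a secreted or membrane-bound ligand, *Lpar1* a receptor, *Psat1* an enzyme of serine synthesis, *Necab1* a calcium-binding protein, *Tmem176b* a membrane protein and *Rab37* a GTPase of secretory vesicles.

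At P22, all 10 genes had a positive log2 fold change in Bai1tm2b/tm2b mice, and 4 passed the test, which are *Mpp3*, *Marcksl1*, *St8sia2* and *Tfcp2l1*. Their upstream sequences are shown because these genes differed together and 3 of the 4 have an entry in the RefSeq promoter table used (GRCm38.p6). Each is the run of 250 bases before the start site, written 5′ to 3′ on the strand of the gene, with the matches to the motifs named next in capitals. They lie at chr4:129513331-129513580 (plus strand), chr7:74013683-74013932 (minus strand) and chr1:118627695-118627944 (plus strand), in this order.
Marcksl1: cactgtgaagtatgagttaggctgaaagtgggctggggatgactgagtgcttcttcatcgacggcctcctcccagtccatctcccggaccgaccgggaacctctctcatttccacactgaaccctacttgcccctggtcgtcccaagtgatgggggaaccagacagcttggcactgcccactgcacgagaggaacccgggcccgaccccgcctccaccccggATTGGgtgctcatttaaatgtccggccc
St8sia2: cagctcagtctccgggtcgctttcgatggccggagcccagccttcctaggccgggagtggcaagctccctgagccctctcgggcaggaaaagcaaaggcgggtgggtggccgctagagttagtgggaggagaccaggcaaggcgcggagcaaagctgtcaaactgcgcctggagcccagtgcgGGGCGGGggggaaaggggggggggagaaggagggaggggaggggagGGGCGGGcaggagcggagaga
Tfcp2l1: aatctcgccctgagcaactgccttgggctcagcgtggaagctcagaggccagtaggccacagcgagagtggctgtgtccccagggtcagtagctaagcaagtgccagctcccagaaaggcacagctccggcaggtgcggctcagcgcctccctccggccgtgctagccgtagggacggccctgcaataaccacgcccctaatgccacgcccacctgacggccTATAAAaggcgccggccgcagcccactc

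Of the 10 genes, 7 had at least 1 entry in that table, with 12 promoters in all, and *Mpp3*, *Necab1* and *Rab37* had none. Both strands were searched for 6 motifs of known promoter elements. The *Marcksl1* promoter held CCAAT (on the opposite strand, 28 bases before the start), the *St8sia2* promoter GGGCGGG, 67 and 21 bases before the start, and the *Tfcp2l1* promoter TATAAA, 28 bases before it. Among 32841 promoters of the same length, CCAAT was found in 33.9%, GGGCGGG in 23.4% and TATAAA in 12.4%. Of the 12 promoters, 3 held CCAAT, 2 GGGCGGG and 2 TATAAA. Genes not called at P22 held them too, *Lpar1* and *Psat1* CCAAT and *Kitl* GGGCGGG and TATAAA. The activity-regulated element TGACGTCA, found in 1.55% of all promoters, the AP-1 motif TGANTCA (6.75%) and the E-box CACGTG (6.02%) had no match in the 12 promoters, which says only that these letters are not in these windows. The 12 promoters had a median GC content of 61.2%, against 52.4% for all promoters.

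As a check on the labels, *Adgrb1* itself was lower in Bai1tm2b/tm2b libraries at P22, between 100 and 105 CPM (counts scaled to library size) against 152 to 167 in Bai1tm2b/+ (log2 fold change -0.61, SE 0.0585, edgeR adjusted p = 0.000602). At P7 its difference was -0.64 (SE 0.227, edgeR adjusted p = 0.894) in the libraries in counts and 0.018 (SE 0.130, limma adjusted p = 0.934) in those in rounded TPM. The value per gene sums all transcripts, including those that start after the deleted exons, so it is no measure of the deletion. As *Adgrb1* passed no test at P7, the genotype labels of the P7 libraries are not checked by it. Libraries in counts summed to between 35725985 and 40350413 at P22 and to between 31108551 and 58807173 at P7, with 134 to 30169 counts per member and library at P7 and 157 to 7737 at P22. Between libraries of 1 group, the counts differed by a chi-square per gene of 11.4 to 24.1 at P22 and of 14.2 to 70.1 at P7, where homozygous replicate 5 and heterozygous replicate 6 stood farthest from the rest, so results that turn on those libraries are given without them. *Slc17a8* (VGLUT3), read outside the rule for named genes, was detected in every library at P22, between 22.8 and 25.5 CPM in Bai1tm2b/+ and 26.8 and 40.0 CPM in Bai1tm2b/tm2b mice (log2 fold change 0.49, SE 0.129, edgeR adjusted p = 0.0336, under the fold limit of 0.5).

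**Figure D1:**
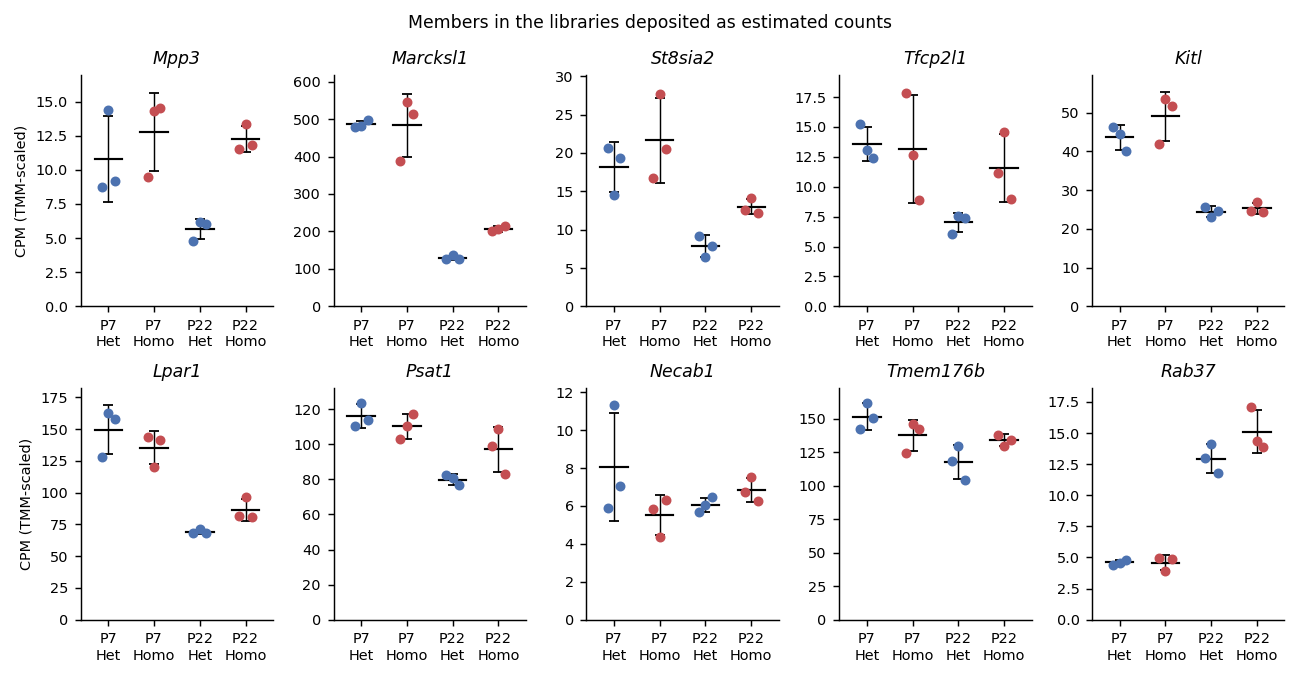
Level of each of the 10 genes in the 12 libraries deposited as estimated counts, in CPM on a common TMM scale (vertical axis from 0), for P7 and P22 Bai1tm2b/+ (Het, blue) and Bai1tm2b/tm2b (Homo, red) mice. Points are libraries, long bars are means and error bars are SDs (n = 3), and *Mpp3*, *Marcksl1*, *St8sia2* and *Tfcp2l1* are separated between genotypes at P22 but not at P7.

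The first comparison asked whether the genotypes differ at P22. A call required an adjusted p under 0.05 by edgeR, a log2 fold change of more than 0.5, up or down, and an SE under 0.5, which follow the limits of the study for this age. The 4 genes called higher were *Mpp3*, *Marcksl1*, *St8sia2* and *Tfcp2l1*, or 4 of 10, where 1.74% of 15443 genes tested were called higher, and no member was called lower, where 1.41% were. The study itself reported 4 genes of its longer list as changed in these same P22 libraries. The comparison here therefore repeats one of the study and is not an independent result. The members' median log2 fold change was 0.31, against 0.013 for all genes, and all 10 were positive, as were 52.4% of all genes.

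*Mpp3*, on the minus strand of chromosome 11 (GRCm38 101999652 to 102028461), encodes a membrane-associated guanylate kinase, a scaffold that gathers adhesion proteins at cell contacts. Its level was 4.82, 6.19 and 6.01 CPM in the Bai1tm2b/+ libraries and 11.6, 13.4 and 11.8 CPM in the Bai1tm2b/tm2b libraries. The groups did not overlap, and every homozygous library was well above the highest heterozygous library. The increase was 2.17-fold (log2 fold change 1.12, SE 0.133, edgeR adjusted p = 0.00133), larger than that of 99.2% of all genes tested.

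*Marcksl1*, on the plus strand of chromosome 4 (129513581 to 129515985), encodes an actin-binding protein of the plasma membrane that is rich in growing neurites. It was the most abundant of the 4 genes, with 127, 137 and 128 CPM in Bai1tm2b/+ and 201, 205 and 216 CPM in Bai1tm2b/tm2b libraries. The groups were far apart for a gene whose libraries had a coefficient of variation of 4.19% and 3.62% within the groups. The increase was 1.60-fold (log2 fold change 0.68, SE 0.0570, edgeR adjusted p = 0.000392).

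*St8sia2*, on the minus strand of chromosome 7 (73939119 to 74013690), encodes the polysialyltransferase that adds long sialic acid chains to NCAM in developing tissue. Its level was 9.21, 6.41 and 7.92 CPM in Bai1tm2b/+ libraries and 12.6, 14.1 and 12.2 CPM in Bai1tm2b/tm2b libraries, without overlap. The log2 fold change was 0.73 (SE 0.141, edgeR adjusted p = 0.00974).

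*Tfcp2l1*, on the plus strand of chromosome 1 (118627945 to 118685168), encodes a transcription factor of the CP2 family known from epithelia and pluripotent cells. It was read at 6.08, 7.57 and 7.39 CPM in Bai1tm2b/+ libraries and at 11.1, 14.6 and 8.96 CPM in Bai1tm2b/tm2b libraries. The groups did not overlap, but the homozygous libraries were spread widely. The log2 fold change was 0.73 (SE 0.175, edgeR adjusted p = 0.0247), and the call was lost without Bai1tm2b/+ replicate 1 (0.64, adjusted p = 0.0949), Bai1tm2b/+ replicate 3 (0.77, adjusted p = 0.0630) or Bai1tm2b/tm2b replicate 2 (0.53, adjusted p = 0.0784), within a range of adjusted p from 0.00111 to 0.159 over all alternatives to the edgeR fit.

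The members of cell signalling are a receptor and a ligand. *Lpar1*, on the minus strand of chromosome 4 (58435255 to 58553898), encodes a receptor for lysophosphatidic acid. It was at 67.9, 71.2 and 68.0 CPM in Bai1tm2b/+ and at 81.9, 96.3 and 80.7 CPM in Bai1tm2b/tm2b libraries, again without overlap. Its log2 fold change of 0.33 (SE 0.0743, edgeR adjusted p = 0.0189) was under the fold limit, so it was not called. *Kitl*, on the plus strand of chromosome 10 (100015630 to 100100416), encodes KIT ligand, which signals to cells carrying the receptor KIT. *Kitl* overlapped between genotypes, with 25.7, 23.0 and 24.6 CPM against 24.6, 27.0 and 24.3 CPM, and its log2 fold change of 0.056 had a 95% interval of -0.10 to 0.21 (edgeR adjusted p = 0.692).

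*Psat1*, on the minus strand of chromosome 19 (15904678 to 15947337), encodes phosphoserine aminotransferase of the serine synthesis pathway. It was at 82.5, 80.6 and 76.5 CPM against 99.3, 109 and 83.2 CPM, and the groups did not overlap, although the lowest homozygous library was close to the highest heterozygous library (log2 fold change 0.29, SE 0.0881, edgeR adjusted p = 0.0566). With the 4 called genes and *Lpar1*, this makes 6 of 10 members higher without overlap, where 15% of all genes were. *Rab37* (chromosome 11, plus strand, 115091431 to 115162236), *Tmem176b* (chromosome 6, minus strand, 48833818 to 48841496) and *Necab1* (chromosome 4, minus strand, 14952245 to 15149794) overlapped between genotypes and missed the test, with log2 fold changes of 0.23, 0.20 and 0.18 and edgeR adjusted p values of 0.210, 0.116 and 0.405. In *Tmem176b* and *Necab1*, 3.42% and 7.83% of exon bases overlap a gene on the opposite strand, whose reads may not be told apart.

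Markers of the tissue's cell types were not level between the P22 genotypes. The summed level of 10 neuron markers was 14613 to 16597 CPM in Bai1tm2b/+ and 10741 to 12231 CPM in Bai1tm2b/tm2b libraries, with 9 of 10 markers lower and 2 called lower. The sum of 10 hair cell markers was also lower, at 5165 to 5386 CPM against 3708 to 4168 CPM, most of it *Calb2*, which neurons express as well. The sum of the 9 others was 438 to 460 CPM against 561 to 658 CPM, that of 8 supporting cell markers 1113 to 1251 CPM against 1336 to 1406 CPM, and that of 9 macrophage markers 152 to 184 CPM against 182 to 235 CPM, and no marker of these 4 lists was at 0 at either age. In bulk tissue, fewer cells of a type and less RNA per cell cannot be told apart, and the part of these shifts in the members' differences was not tested. Markers of dividing cells and of marrow reached higher sums in Bai1tm2b/tm2b libraries, at low levels. Of 6 proliferation markers, 6 had a positive difference (median 0.95, 1 called), with sums of 6.28 to 8.25 CPM against 6.39 to 21.2 CPM, and of 9 marrow neutrophil markers 9 had (median 1.85, 1 called), with sums of 7.54 to 19.2 CPM against 8.37 to 66.6 CPM, and their part was not tested either. When the libraries were scaled to neuron markers, which moved the median of all genes to 0.31, 7 members were called higher, and when they were scaled to hair cell markers (median of all genes -0.41), *Mpp3* alone was called (0.69), while *Kitl*, *Lpar1*, *Necab1*, *Psat1*, *Rab37* and *Tmem176b* turned negative.

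**Figure D2:**
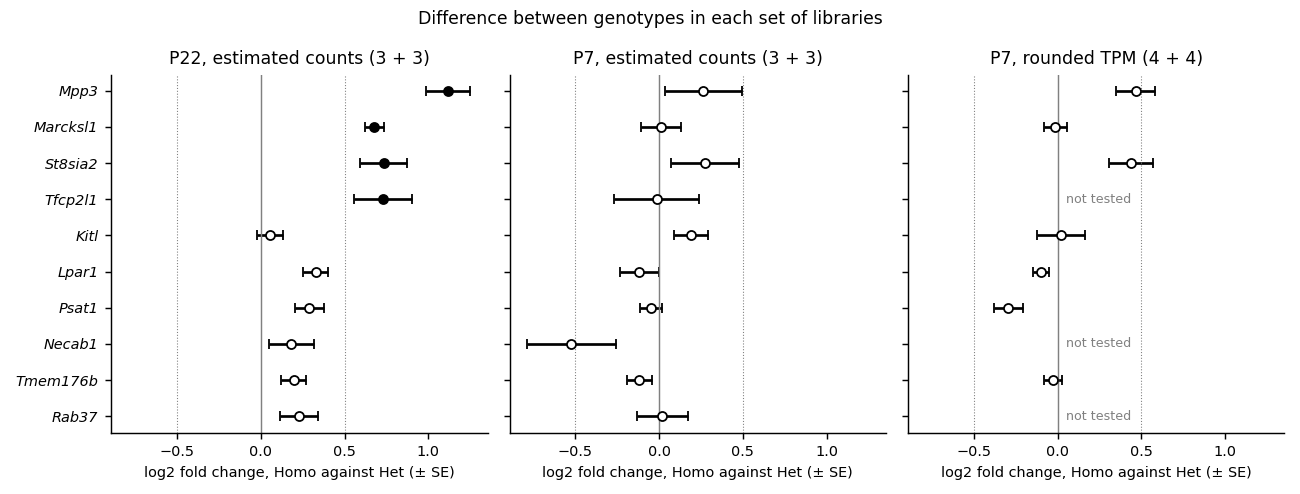
Log2 fold change of Bai1tm2b/tm2b (Homo) against Bai1tm2b/+ (Het) mice with its SE (horizontal axis) for each of the 10 genes in the 3 sets of libraries, with filled points for called genes and dotted lines at the fold limits. At P22 all 10 points are above 0 and 4 are filled, and no point is filled in either P7 set.

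The second comparison asked the same at P7. In the libraries deposited as counts, 0 of 10 members were called in either direction, as for all genes (0% of 16026, with 763 genes at an unadjusted p under 0.05 by edgeR and 41 higher and 3 lower calls by DESeq2), and 0 members reached an unadjusted p under 0.05 by edgeR, where 3.08% of genes did so upward and 1.68% downward. The median of the members was -0.0016, with 5 positive and 5 negative values, where 50.9% of all genes were positive. Every member overlapped between the genotypes, where 4.91% of all genes were higher and 5.83% lower without overlap.

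The 4 genes called at P22 overlapped at P7. *Mpp3* was at 8.74, 14.4 and 9.19 CPM in Bai1tm2b/+ and at 9.50, 14.3 and 14.5 CPM in Bai1tm2b/tm2b libraries (log2 fold change 0.26, SE 0.231). *Marcksl1* was at 480, 482 and 496 CPM against 388, 547 and 515 CPM, and its difference of 0.012 had a 95% interval of -0.22 to 0.25. The homozygous libraries were on both sides of the heterozygous ones. *St8sia2* was at 20.7, 14.5 and 19.4 CPM against 16.8, 27.7 and 20.5 CPM (0.27, SE 0.203), and *Tfcp2l1* at 15.2, 13.1 and 12.4 CPM against 17.9, 12.7 and 8.91 CPM (-0.016, SE 0.252). The edgeR adjusted p values of these 4 genes were between 0.894 and 0.996, and the 95% intervals of *Mpp3*, *St8sia2* and *Tfcp2l1* reach up to 0.72, 0.67 and 0.48. Without Bai1tm2b/+ replicate 6, the difference of *Mpp3* was 0.53, and without Bai1tm2b/tm2b replicate 5 those of *Mpp3*, *St8sia2* and *Tfcp2l1* were 0.42, 0.41 and -0.33, and none of them was called.

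Among the other members, *Kitl* had the highest P7 difference in counts (0.19, SE 0.101) and *Necab1* the lowest (-0.52, SE 0.266), and both missed the test with an edgeR adjusted p of 0.894. The value of *Necab1* rested on Bai1tm2b/+ replicate 6, which read 11.3 CPM where the other 2 heterozygous libraries read 5.88 and 7.03 CPM and the homozygous libraries 5.86, 4.34 and 6.33 CPM. Without that replicate, the difference was -0.20. *Lpar1*, *Psat1*, *Tmem176b* and *Rab37* had P7 differences in counts between -0.12 and 0.019.

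In the P7 libraries in rounded TPM, compared with limma on log2 values after adding 1, 7 of the 10 members reached the mean of 5 TPM needed for the test and 0 were called (3 at an unadjusted p under 0.05 by limma, where 18.3% of genes were higher and 16.1% lower at such a p), while 0.656% of 11740 genes were called higher and 0.153% lower. *Mpp3* was again higher in Bai1tm2b/tm2b libraries, at 7.87, 9.55, 8.81 and 11.2 against 6.92, 7.03, 5.35 and 6.60 rounded TPM after TMM scaling. The groups did not overlap, and the log2 fold change of 0.47 (SE 0.117, limma adjusted p = 0.0464, range over the alternatives 0.0172 to 0.128) was under the fold limit. *St8sia2* was at 6.89, 5.73, 5.87 and 6.52 against 4.94, 5.02, 3.21 and 4.40 rounded TPM, also without overlap (0.44, SE 0.129, limma adjusted p = 0.0573). *Marcksl1*, in contrast, was at 720, 771, 788 and 710 against 769, 732, 713 and 802 rounded TPM, with a difference of -0.012 (SE 0.0688).

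*Necab1* and *Tfcp2l1* were too low for the test, at no more than 5.59 rounded TPM, where 1 unit of rounding is a large share of the value. *Necab1* nevertheless separated the groups, with 4.92, 4.77, 4.89 and 5.59 in Bai1tm2b/tm2b against 2.96, 4.02, 2.14 and 2.20 rounded TPM in Bai1tm2b/+ libraries, the opposite direction to its difference in the P7 libraries in counts. *Psat1* was lower in the knockout, at 149, 150, 152 and 134 against 159, 165, 202 and 194 rounded TPM (log2 fold change -0.29, SE 0.0852, limma adjusted p = 0.0562), and *Lpar1* was lower by -0.098 (limma adjusted p = 0.190). Of the 7 members tested, *Mpp3* and *St8sia2* were thus higher without overlap and *Psat1* and *Lpar1* lower, 2 each way, where 9.24% and 8.97% of the 11740 genes tested were. The sum of 10 neuron markers overlapped between these groups, with 1776 to 2440 in Bai1tm2b/tm2b and 1435 to 2309 rounded TPM in Bai1tm2b/+ libraries. Of these markers, 9 of 9 tested had a positive difference (median 0.23, against 0.012 for all genes), and their part in the higher *Mpp3* and *St8sia2* levels was not tested. The sum of Schwann cell and myelin markers was spread from 11431 to 22713 against 18471 to 19988 rounded TPM. *Rab37*, *Kitl* and *Tmem176b* overlapped between genotypes, and *Rab37* had a single heterozygous library at 8.56 while the other 7 libraries were between 3.01 and 4.40 rounded TPM.

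**Figure D3:**
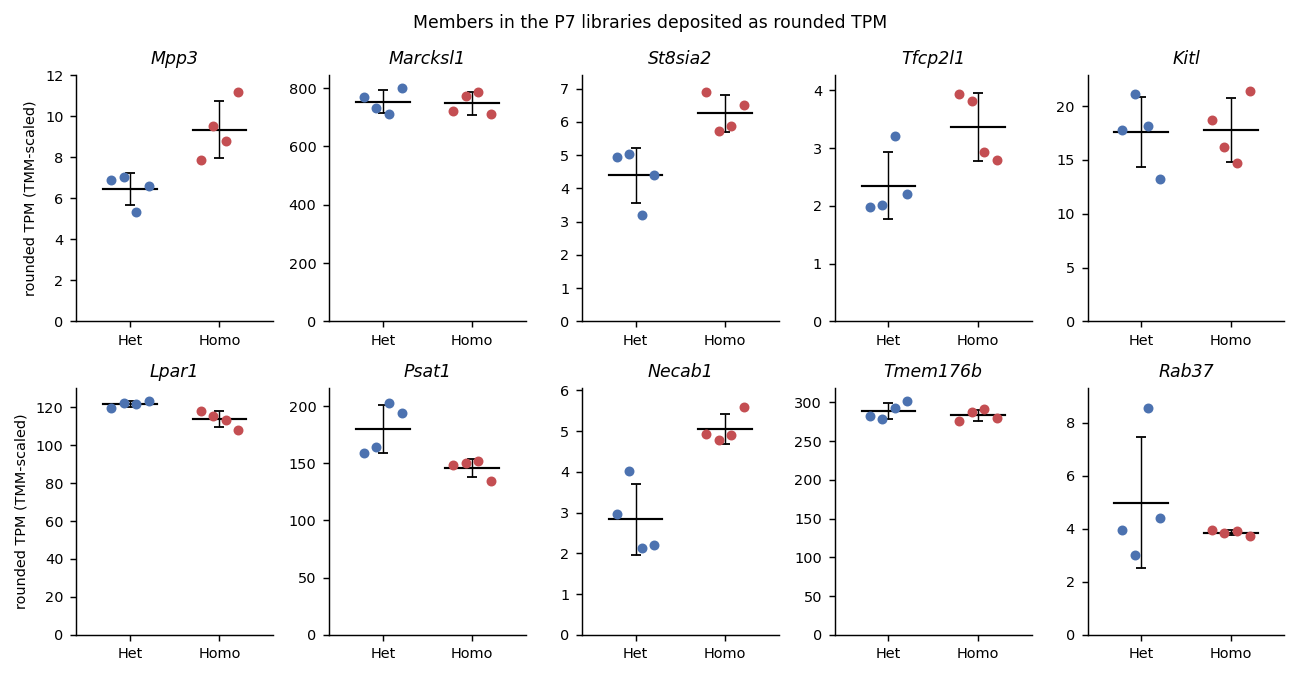
Level of each of the 10 genes in the 8 P7 libraries deposited as rounded TPM, after TMM scaling (vertical axis from 0), for Bai1tm2b/+ (Het, blue) and Bai1tm2b/tm2b (Homo, red) mice. Points are libraries, long bars are means and error bars are SDs (n = 4), and *Mpp3*, *St8sia2* and *Necab1* are higher and *Psat1* and *Lpar1* lower in the homozygous libraries without overlap.

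The third comparison asked whether the genes fall with maturation, using the 6 P7 and 6 P22 libraries in counts. Its change is the average of those in Bai1tm2b/+ and Bai1tm2b/tm2b mice, which are given separately below. *Marcksl1*, *St8sia2*, *Kitl*, *Lpar1* and *Tfcp2l1* fell from P7 to P22 and *Rab37* rose. With 5 of 10 members called lower, where 28.7% of 16314 genes were, and 1 called higher, where 25.9% were, the members' median log2 fold change was -0.53 against -0.050 for all genes, and 9 of 10 members were negative, where 52.3% of all genes were. With the P7 rounded TPM in place of the P7 counts, *Kitl* turned to 1.08 and *St8sia2* was no longer called (-0.094, limma adjusted p = 0.352), so the declines of these 2 genes rest on the libraries in counts. At P7 itself, their rounded TPM was 0.200 (*Kitl*) and 0.451 (*St8sia2*) of the value from counts and median transcript length. This mismatch enters the alternative, which cannot separate it from age and so does not decide on the declines in counts. Age and deposited table coincide in these libraries, and the labels give no sequencing run. Effects of age, table and run cannot be told apart. The P22 libraries are also those of the genotype comparison at P22, so the changes with age and with genotype at P22 are not independent of each other.

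The steepest decline was that of *Marcksl1*, which went from 388 to 547 CPM at P7 to between 127 and 216 CPM at P22 (log2 fold change -1.56, SE 0.0776, edgeR adjusted p = 1.32e-09). All P22 libraries of either genotype were below all P7 libraries. *St8sia2* (-0.97, SE 0.136), *Kitl* (-0.90, SE 0.0697) and *Lpar1* (-0.88, SE 0.0737) also had no overlap between the ages, with edgeR adjusted p values of 2.2e-05, 7.99e-08 and 1.57e-07, so that 4 of 10 members were lower at P22 without overlap, where 32% of all genes were. *Tfcp2l1* overlapped between ages (-0.57, SE 0.164, edgeR adjusted p = 0.00632) and lost the call without P7 Bai1tm2b/tm2b replicate 5 (-0.42, adjusted p = 0.0143) or P22 Bai1tm2b/tm2b replicate 3 (-0.49, adjusted p = 0.0172).

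*Rab37*, in contrast, was between 3.91 and 4.94 CPM in all P7 libraries in counts and between 11.8 and 17.1 CPM at P22, a 3.04-fold increase without overlap, where 30.6% of all genes were higher without overlap (log2 fold change 1.60, SE 0.0903, edgeR adjusted p = 3.85e-09). *Mpp3* (-0.49, SE 0.147, edgeR adjusted p = 0.00755), *Psat1* (-0.36, SE 0.0646, adjusted p = 0.000192) and *Tmem176b* (-0.20, SE 0.0626, adjusted p = 0.0100) passed the p threshold but not the fold limit, and *Mpp3* was called lower in 10 of 20 alternatives (range -0.93 to -0.061). *Necab1* did not differ beyond the spread between libraries (-0.055, 95% interval -0.36 to 0.25). Markers moved strongly with age as well. At P22, 8 of 10 neuron markers were called higher and 2 lower (median 2.59). Of 8 Schwann cell and myelin markers, 6 were called higher (median 0.95). All 6 proliferation (median -3.05) and all 6 bone markers (-1.96) were called lower, as were 6 of 9 macrophage markers (-0.75). Of 8 supporting cell markers, 5 were called lower and 2 higher (median -1.17). Of 10 hair cell markers, 5 were called lower and 1 higher (median -0.41). The part of these shifts in the members' changes was not tested.

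The size of the change with age was then read within each genotype. Within Bai1tm2b/+ mice, 7 of 10 members were called lower at P22 (27% of all genes) with a median of -0.88, and within Bai1tm2b/tm2b mice 4 of 10 (25.1% of all genes) with a median of -0.18, while the medians of all genes were -0.058 and -0.042. *Mpp3* went from a mean of 10.8 ± 3.14 CPM (SD, n = 3) at P7 to 5.67 ± 0.747 CPM at P22 in Bai1tm2b/+ mice, and from 12.8 ± 2.84 to 12.3 ± 0.979 CPM in Bai1tm2b/tm2b mice. On the log2 scale this is -0.93 (SE 0.211) against -0.061 (SE 0.204). The P7 Bai1tm2b/+ mean of *Mpp3* includes replicate 6 at 14.4 CPM, where the other libraries read 8.74 and 9.19 CPM. *Marcksl1* went from 486 ± 9.21 to 130 ± 5.46 CPM in Bai1tm2b/+ mice, a 3.73-fold fall, and from 483 ± 84.1 to 207 ± 7.51 CPM in Bai1tm2b/tm2b mice, a 2.33-fold fall.

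The pattern of *Tfcp2l1* was like that of *Mpp3*, with -0.95 (SE 0.234) in Bai1tm2b/+ and -0.18 (SE 0.229) in Bai1tm2b/tm2b mice. *St8sia2* (-1.21 and -0.74) and *Lpar1* (-1.12 and -0.65) were called lower in both genotypes, with the larger fall in the controls. *Kitl* alone of the 10 fell slightly more in Bai1tm2b/tm2b (-0.96, SE 0.0985) than in Bai1tm2b/+ mice (-0.84, SE 0.0986). *Rab37* rose in both, by 1.49 and 1.72, and *Necab1*, with -0.42 and 0.31, was not called in either.

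**Figure D4:**
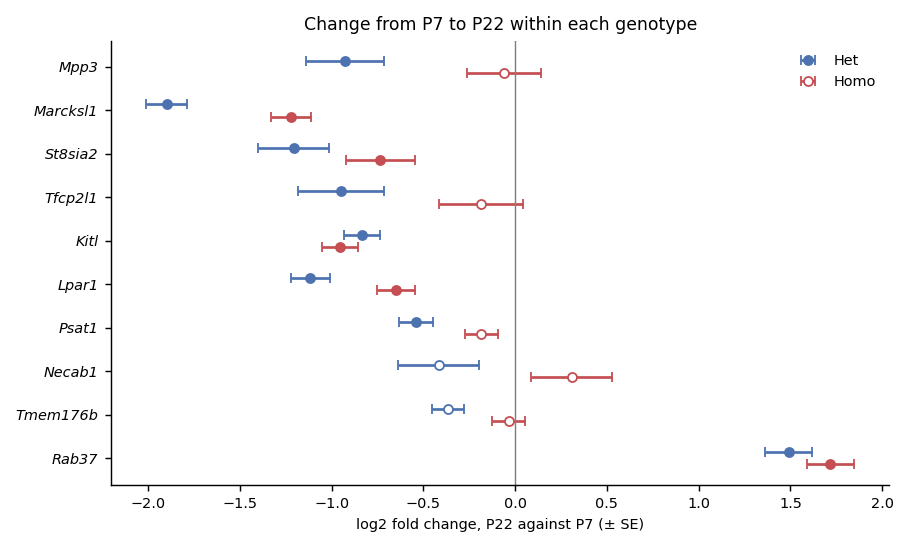
Log2 fold change of P22 against P7 with its SE (horizontal axis) for each of the 10 genes in Bai1tm2b/+ (Het, blue) and Bai1tm2b/tm2b (Homo, red) libraries in counts, with filled points for called changes. The blue point is to the left of the red point for 9 of the 10 genes, and *Kitl* is the exception.

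The difference between the 2 declines was tested as the interaction of genotype and age in the same edgeR fit. It was positive for 9 of 10 members, where 54.3% of all genes were positive, with a median of 0.47 against 0.024 for all genes, and 7 members had an unadjusted p under 0.05, where 5.82% of all genes were positive with such a p. None was called after adjustment over 16314 genes, where 0% were called higher and 0.0306% lower. The largest interaction was that of *Mpp3* (0.87, SE 0.293, edgeR adjusted p = 0.338) and the most precise of the larger ones that of *Marcksl1* (0.68, SE 0.152, edgeR adjusted p = 0.178). The interaction of *Mpp3* was 0.60 without P7 Bai1tm2b/+ replicate 6, and that of *Necab1* was 0.40 without it, against 0.73 with it. Without P7 Bai1tm2b/tm2b replicate 5, the library with the lowest *Marcksl1* level at P7, *Marcksl1* was called with an interaction of 0.54 (edgeR adjusted p = 0.0219, range over the alternatives 0.0219 to 0.427). Marker lists moved in this contrast too, with all 10 hair cell (median 0.44) and all 8 Schwann cell and myelin markers (0.56) positive. So were all 9 macrophage (0.30) and all 6 proliferation markers (0.77). Erythroid (0 of 4), stria vascularis and melanocyte (2 of 6) and bone markers (3 of 6) had negative medians. In the P7 counts, 0 of 8 Schwann cell and myelin markers were positive (median -0.40). The part of these shifts was not tested.

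The genes that work beside each member give the setting for these changes. The 10 lists of relatives were drawn up by pathway or family, with earlier results of these data known. At P22, 71 of their 75 genes were tested and 0 were called higher in Bai1tm2b/tm2b mice. Called lower was 1, the calcium buffer *Calb2* (log2 fold change -0.54, SE 0.0746, edgeR adjusted p = 0.00292). Calls over all genes were 1.74% higher and 1.41% lower. At an unadjusted p under 0.05 by edgeR, 10 relatives were higher and 17 lower, where 13.7% and 15% of all genes were, and DESeq2 also called 0 higher and 1 lower. At P7, 0 relatives were called by edgeR or DESeq2 in counts (5 higher and 3 lower at an unadjusted p under 0.05, where 3.08% and 1.68% of all genes were), 0 by limma in rounded TPM (11 and 5, where 18.3% and 16.1% of all genes were), and 0 by edgeR in the interaction (6 and 4, where 5.82% and 4.39% of all genes were). From P7 to P22, 17 of 74 relatives were called higher and 29 lower, where 25.9% and 28.7% of all genes were, with a median of -0.37 against -0.050 for all genes.

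Around *Marcksl1*, 4 of 7 growth cone genes fell from P7 to P22 (28.7% of all genes) and 2 rose (25.9% of all genes). The falls were led by *Gap43*, a growth-associated protein of axons (log2 fold change -3.04, SE 0.148), and *Marcks*, the paralog of *Marcksl1* (-2.79, SE 0.0777), and also by *Dpysl3* (-1.22). The neuronal tubulin *Tubb3* (2.46) and *Stmn2* (1.19) rose. At P22, *Gap43* (0.41, SE 0.192, edgeR adjusted p = 0.185) and *Marcks* (0.19, SE 0.0970, adjusted p = 0.216) did not pass the genotype test. *Basp1* (0.45, adjusted p = 0.00560), *Stmn2* (-0.30, adjusted p = 0.00737) and *Dpysl3* (-0.29, adjusted p = 0.0118) passed the p threshold by edgeR but not the fold limit, in both directions. Around *St8sia2*, 6 of 11 genes of sialylation rose (25.9% of all genes) and 3 fell. Those that rose include *St8sia1* (2.98) and *St8sia5* (2.70), which build gangliosides, *Gne* (1.15), the first enzyme of sialic acid synthesis, and *Ncam1* (1.13), the main carrier of polysialic acid.

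Around *Lpar1*, 8 of 13 genes of lysophosphatidic acid signalling fell (28.7% of all genes), which include the receptors *Lpar2* (-1.92), *Lpar4* (-1.63) and *Lpar6* (-1.09), the enzyme *Enpp2* (autotaxin, -0.87) that makes the ligand, and the neuronal phosphatase-related protein *Plppr1* (-2.29), while the phosphatase *Plpp1* rose (1.46). The receptor of *Kitl*, *Kit*, passed neither the test of age (-0.026) nor that of genotype at P22 (0.15, edgeR adjusted p = 0.269). In the serine pathway, *Shmt1* (-2.15) and the transporter *Slc7a10* (-2.19) fell and *Mthfd2* rose (1.41), and *Phgdh*, which acts just before *Psat1*, was 0.25 higher in Bai1tm2b/tm2b mice at P22 (SE 0.0653, edgeR adjusted p = 0.0313), under the fold limit like *Psat1*. Of 13 scaffold relatives and partners of *Mpp3*, 3 rose, the most *Cadm3* (2.42) and *Dlg2* (2.41), and 2 fell, *Dlg1* (-0.79) and *Cask* (-0.77).

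The remaining lists were divided with age. *Calb2* (4.56) and *Pvalb* (2.54), calcium buffers of mature neurons, rose and *Necab2* (-3.99) and *Calb1* (-2.12) fell, while *Necab1* was not called. Among secretory RAB genes, *Rab3a* (2.74) and *Rab3c* (1.77) of synaptic vesicles rose like *Rab37*, and *Rab3b* (-2.90), *Rab3d* (-0.90) and *Rab27b* (-0.77) fell. In the CP2 and grainyhead family of *Tfcp2l1*, *Grhl2* (-1.47) and *Ubp1* (-0.54) fell and none rose, and 3 of 4 measured relatives of *Tmem176b*, led by *Ms4a7* (-1.23), fell beside the decline of macrophage markers.

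**Figure D5:**
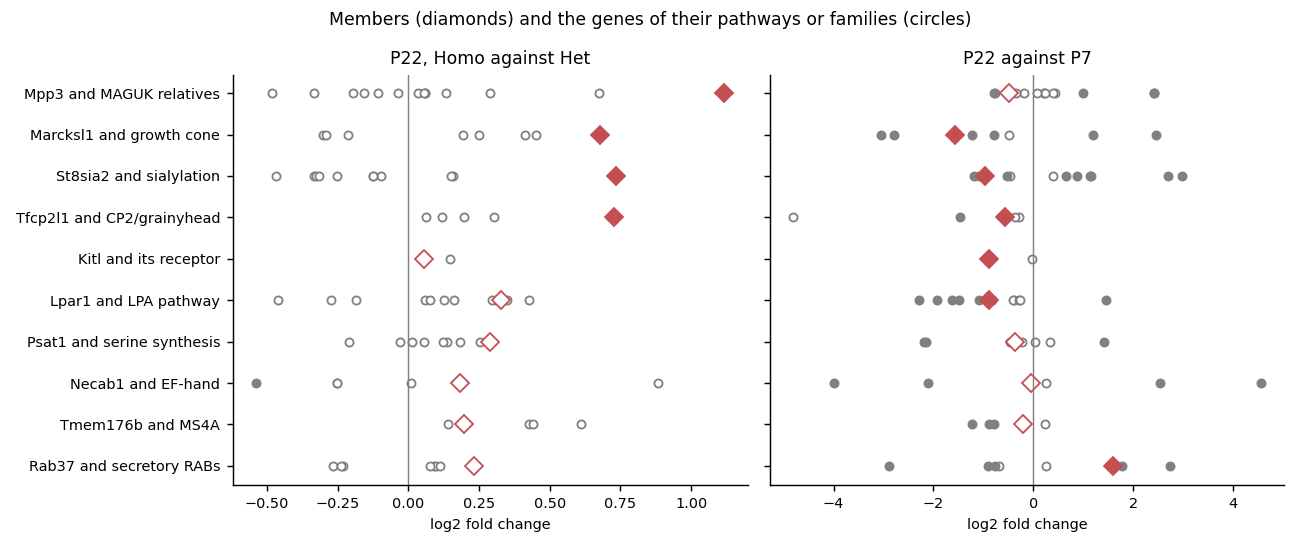
Log2 fold change (horizontal axes) of each member (red diamond) and of the genes of its pathway or family (grey circles), on the left for Bai1tm2b/tm2b against Bai1tm2b/+ mice at P22 and on the right for P22 against P7, with filled symbols for called genes. On the left 4 diamonds are filled on the right-hand side where no circle is filled, and on the right filled circles lie on both sides of 0.

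The 10 genes cover a wide range of expression. By the mean of the 8 P7 libraries deposited as TPM, a scale that accounts for transcript length, *Marcksl1* was the highest (751 ± 47.2 TPM, SD, n = 8), followed by *Tmem176b* (287 ± 11.4), *Psat1* (162 ± 14.4) and *Lpar1* (118 ± 3.73). *Kitl* (17.8 ± 3.41) and *Mpp3* (8 ± 2.27) were lower in these libraries. From counts and median transcript length in the P7 Bai1tm2b/+ libraries, however, *Kitl* was at 82.1 TPM, near *Lpar1* (81.6) and *Psat1* (92.1), so its place in the order depends on the table. *St8sia2* (5.38), *Rab37* (4.38), *Necab1* (4) and *Tfcp2l1* (2.88) followed, and neighbours in this last group overlapped in range, from 2 to 8 TPM, so their order is not resolved by whole-number values.

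After the mean of each age was removed, Pearson correlations of log2 CPM between members across the 12 libraries in counts, which share the genotype difference at P22, ran from 0.88 for *Mpp3* with *Marcksl1* to -0.34 for *St8sia2* with *Necab1*. Among 11655 genes of at least 5 CPM at both ages, the gene most like *Marcksl1* was *Ism1* (Pearson r = 0.98, 12 libraries), and those most like *Tmem176b* and *Tfcp2l1* were *Gnb2* and *Fgfbp1* (both 0.96). The closest genes to *Lpar1* and *St8sia2* were *Rftn1* and *Lmo7* (both 0.95), to *Necab1* *Gnb4* (0.94), to *Psat1* a gene that the file spells 8-Mar (0.93), to *Mpp3* and *Kitl* *Rab31* and *Ebf3* (both 0.91), and to *Rab37* *Snx15* (0.87). With the best of 11655 genes taken over 12 libraries, such values are a description only.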

How the data were processed

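RNA-seq of cochlear libraries was analyzed from the tables the authors deposited. The authors prepared poly A libraries, sequenced them as paired-end reads, processed them with the nf-core RNA pipeline on mm10 and counted reads per gene with Salmon. Pipeline versions, annotation and strand setting are not given in the sources used here. The P22 libraries and P7 replicates 5 to 7 were deposited as estimated counts (expected counts) without normalization. P7 replicates 1 to 4 were deposited as whole numbers that sum to 999644 to 999777 per library, and this score behaves as rounded TPM, of unknown depth.

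Estimated counts were rounded, filtered with filterByExpr and scaled by TMM, and tested in R 4.3.3 with edgeR 4.0.16 (quasi-likelihood F test), with 2-sided p values adjusted by the Benjamini-Hochberg method over all genes tested. The SE was taken as the log2 fold change divided by the square root of F, and 95% intervals use the normal quantile of the SE. Plotted and printed CPM are on a TMM scale over the 12 libraries in counts, while each genotype fit used the scaling of its own set. Rounded TPM were scaled by TMM and compared with limma 3.58.1 on log2(value + 1), so that these fold changes understate those of low genes, where the mean over libraries was 5 or more. A count test had been planned for all P7 libraries, which this unit does not allow. Alternatives were other scaling, filters, limits and pseudocounts, the Wald test of DESeq2 1.42.0, a replicate block, and each library left out. The main edgeR and limma tests were run on simulated data with known changes before use. The alternatives and the changes with age within each genotype were not. Libraries are separate pools of mice.

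The members and all gene lists were chosen with earlier results of these data known. All 10 members are named, with *Adgrb1* as a check of the labels, up to 4 called relatives per list and comparison, and the gene most correlated with each member; *Slc17a8*, further relatives and those that did not pass were added after their values were seen. Of 162 listed genes, 160 were found in the tables, and older symbols were matched through RefSeq synonyms. Promoters are from RefSeq, gene positions from GENCODE on GRCm38. No column of sample values was left unused.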

Additional observations from a re-analysis of the deposited data

How the results depend on the processing

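At P22, 4 members were called higher under DESeq2 size factors, no filter, the DESeq2 Wald test and the replicate block, 3 to 4 when a library was left out, 7 under neuron marker scaling and 1 under hair cell marker scaling, an alternative chosen after seeing the data, under which *Kitl* (-0.37), *Lpar1* (-0.10), *Necab1* (-0.24), *Psat1* (-0.14), *Rab37* (-0.19) and *Tmem176b* (-0.24) turned negative. Over all genes, calls at P22 were 269 higher and 218 lower, and became 2348 and 48 with neuron scaling, 44 and 4653 with hair cell scaling, 779 and 1125 with the adjusted p alone, and 108 to 305 and 125 to 283 without a library. In the P7 counts, all without calls of members, the small differences of *Tfcp2l1* (-0.33 to 0.21), *Rab37* (-0.058 to 0.13) and *Marcksl1* (-0.078 to 0.13) changed sign with the library left out.

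In the rounded TPM, 1 member was called with a pseudocount of 0.1, 2 without TMM scaling, 1 with the adjusted p alone (added after seeing the data) and 0 to 1 with a library left out. *Lpar1* (0.013), *Marcksl1* (0.099) and *Tmem176b* (0.084) turned positive without TMM scaling, *Tmem176b* (0.057) also when the trend on length and GC content was removed (added after seeing the data), and *Kitl* (-0.10 to 0.10) and *Marcksl1* (-0.043 to 0.017) changed sign with the library left out. Over all genes, the 77 higher and 18 lower calls became 283 and 9 without TMM scaling, 561 and 397 with the adjusted p alone, 0 and 0 with no filter, with the replicate block or with the trend removed, and 0 to 263 and 0 to 69 without a library (0 without heterozygous replicate 2, most without homozygous replicate 1). The cause was not tested.

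From P7 to P22, 8 members were called lower with the adjusted p alone and 4 to 6 without a library, and with P7 rounded TPM in place of counts 2 were called higher, as *Kitl* turned to 1.08, while *St8sia2* lost its call (-0.094, limma adjusted p = 0.352). The rounded TPM at P7 was 0.200 of the value that counts and median transcript length give for *Kitl* and 0.451 of it for *St8sia2*, so these levels depend on the table used. *Necab1* turned to 0.31 in homozygous libraries and to -0.14 to 0.11 with a library left out. The interaction gave 0 to 1 called members without a library, and over all genes 0 to 40 higher and 0 to 61 lower calls, the most without P7 homozygous replicate 5, against 0 and 5, and 1 and 1 with the replicate block. Samples that share a replicate number did not deviate together (correlations from -0.347 to 0.0799), so the numbers were not taken as pairs; the block left the members' calls at 4 for P22 and 0 for both P7 sets and the interaction. With 3 libraries per group, an exact test of a single gene cannot go below p = 0.1, so calls rest on the spread shared across genes.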
